A study of Mus musculus with 18 samples.

Results

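The 8 genes described here carry glucose into the hepatocyte, phosphorylate it, and release it again from glucose-6-phosphate. They were taken by symbol: Slc2a1 and Slc2a2 (glucose transporters GLUT1 and GLUT2), Hk1 and Hk2 (hexokinases), Gckr (the glucokinase regulatory protein), G6pc and G6pc3 (catalytic subunits of glucose-6-phosphatase) and Slc37a4 (the carrier that brings glucose-6-phosphate into the endoplasmic reticulum). All 8 were among the 16533 genes of the liver table and 7 among the 15579 genes of the AML12 table, in which G6pc was not analysed here. Liver RNA came from 6 male db/db mice, strain B6.Cg-dock7m Leprdb/++/J, a leptin receptor mutant that develops obesity and diabetes, so that saline and rMSA mice share this genotype. Of these, 3 mice had been given recombinant mouse serum albumin (rMSA) intravenously at 1.5 mg per g of body weight, in 3 injections 3 weeks apart over 9 weeks, and 3 mice had been given saline. The study states that livers for its omics work were taken from fed mice. AML12, a mouse hepatocyte line whose genotype the labels give as WT, grown in medium with insulin and dexamethasone, was starved overnight without serum and then exposed for 24 h to vehicle, to insulin at 10 nM, to rMSA at 600 µM, or to both (rMSA + insulin), with 3 libraries per group. No source used here gives the age of the mice, and nothing says whether the AML12 libraries came from separate cultures, so their p-values measure only the spread between these libraries.

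Glucose crosses the hepatocyte membrane in both directions through GLUT2, a transporter of low affinity and high capacity that is the main one of adult liver, beta cells, kidney and intestine. GLUT1 has a higher affinity and is the transporter of red cells, endothelium, many cultured cells and growing tissue. Hexokinases 1 and 2 phosphorylate glucose at low concentrations and are low in normal adult hepatocytes, where glucokinase, held in the nucleus by its regulatory protein when glucose is scarce, does most of this work. In the reverse direction the glucose-6-phosphate carrier and the catalytic subunit G6pc together make the free glucose that liver and kidney export, while G6pc3 is found in most tissues.

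The stretches of DNA just before the annotated starts are shown for the 4 genes that passed the test in the liver and for G6pc, the most abundant of the 8. They are the 250 bases before the first annotated start in RefSeq (GRCm38.p6, the build the deposited files use), written 5′ to 3′ on the strand of the gene, and RefSeq promoters were found for all 8 genes. The positions are chr4:119108495-119108744 for Slc2a1 and chr3:28697653-28697902 for Slc2a2, both on the plus strand, chr6:82774455-82774704 for Hk2 on the minus strand, and chr9:44396696-44396945 for Slc37a4 and chr11:101367466-101367715 for G6pc, both on the plus strand. Capitals mark the motifs searched on both strands, which were the E-box CACGTG, the core letters of forkhead sites, given by TGTTTAC or, in a second common form, by TGTTTTG, the TATA box with the letters TATAAA, and the GC box with the letters GGGCGG (capitals as CCGCCC where the box lies on the other strand). None of the matches overlapped another.
Slc2a1: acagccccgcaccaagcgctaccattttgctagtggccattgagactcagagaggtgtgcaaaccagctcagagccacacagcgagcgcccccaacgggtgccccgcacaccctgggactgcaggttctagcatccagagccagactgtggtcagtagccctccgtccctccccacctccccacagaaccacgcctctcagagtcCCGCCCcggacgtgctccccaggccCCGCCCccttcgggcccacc
Slc2a2: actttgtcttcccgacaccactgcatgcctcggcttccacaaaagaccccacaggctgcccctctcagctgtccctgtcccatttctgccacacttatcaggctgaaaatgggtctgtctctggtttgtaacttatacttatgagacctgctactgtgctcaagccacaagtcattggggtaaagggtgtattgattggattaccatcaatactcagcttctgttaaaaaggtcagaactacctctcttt
Hk2: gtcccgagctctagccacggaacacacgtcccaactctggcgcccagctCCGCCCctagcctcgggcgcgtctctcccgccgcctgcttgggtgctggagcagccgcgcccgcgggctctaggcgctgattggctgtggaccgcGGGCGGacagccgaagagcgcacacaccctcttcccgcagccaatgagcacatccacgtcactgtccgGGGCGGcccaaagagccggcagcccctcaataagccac
Slc37a4: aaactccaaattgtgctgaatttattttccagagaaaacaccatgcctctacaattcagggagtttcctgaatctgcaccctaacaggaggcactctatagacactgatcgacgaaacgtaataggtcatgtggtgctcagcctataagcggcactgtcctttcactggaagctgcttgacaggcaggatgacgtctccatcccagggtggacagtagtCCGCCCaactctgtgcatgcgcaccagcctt
G6pc: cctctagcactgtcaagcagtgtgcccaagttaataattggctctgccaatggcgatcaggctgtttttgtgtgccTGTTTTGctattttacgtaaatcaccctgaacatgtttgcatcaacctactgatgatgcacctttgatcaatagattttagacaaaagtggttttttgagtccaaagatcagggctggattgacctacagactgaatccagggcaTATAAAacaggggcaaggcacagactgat

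The promoters of Slc2a1 and Slc2a2 differed in base composition, with 66.4% and 47.2% G or C against a median of 52.4% over 32851 mouse promoters. Slc2a1 held 2 GC boxes, at 45 to 40 and 20 to 15 bases before its start, and Slc2a2 held none of the motifs. The Hk2 promoter had 69.6% G or C and held 3 GC boxes, at 201 to 196, 106 to 101 and 38 to 33 bases before the start, and that of the first of 3 annotated starts of Slc37a4 held 1, at 31 to 26 bases. Before the start of G6pc, with 43.2% G or C, a TATA box lay at 29 to 24 bases and the letters TGTTTTG were found 174 to 168 bases before it. Among the promoters not printed, that of G6pc3 held 2 E-boxes, at 99 to 94 and 79 to 74 bases, and that of Gckr held 1 TGTTTTG. The window of the second Slc37a4 start, which overlaps the first, held 3 GC boxes, and that of the third start held a TATA box at 32 to 27 bases. In windows of the same length, GGGCGG occurred in 32.7% of all promoters, TATAAA in 12.4%, CACGTG in 6.02%, TGTTTTG in 5.56% and TGTTTAC in 3.17%. A match describes these letters only.

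Levels are given as TPM, which counts transcripts relative to a fixed total after division by gene length, so that genes can be set side by side within a library. The hepatocyte label was first checked on 8 marker genes. Their summed level, mostly Alb in the livers, was 64941 to 83794 TPM with saline and 79897 to 86209 TPM with rMSA. In the 12 AML12 libraries it was 168.6 to 433.6 TPM. There Ttr was at 37.3 to 268.5 TPM, Hnf4a at 51.0 to 132.2 TPM and Alb at 23.6 to 93.9 TPM. Apoa1, Apoc3, Fgb and Serpina1a did not exceed 3.62 TPM. Cps1, the first enzyme of the urea cycle, was at 0 in 3 groups and at most 0.02 TPM with insulin. Within the livers 5 of the 8 markers were lower in every rMSA liver (Cps1, Hnf4a, Fgb, Serpina1a and Apoc3, with Cps1 at 1231 to 1579 TPM with saline and 403.1 to 630.0 TPM with rMSA), Ttr and Apoa1 were higher, and Alb overlapped. The part of this in the members' changes was not tested. The 4 of 5 bile duct markers in the AML12 table summed to 1680 to 2254 TPM in AML12 hepatocytes, mostly Krt19. This was above the sum of the 8 hepatocyte markers in every AML12 library. The name AML12 hepatocytes is therefore kept as the study's name for the line and is not a result of these markers. Among the AML12 libraries, insulin libraries 1 and 2 stood apart, with 33.7% and 36.3% of TPM in ribosomal protein genes against 27.0% in insulin library 3 and 22.3% to 28.2% elsewhere.

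In the saline livers G6pc and Slc37a4, which act together in glucose release, stood highest. G6pc was highest at 681 ± 92.0 TPM (SD, n = 3 mice here and for each liver value), followed by Slc37a4 at 345 ± 46.6 TPM and Gckr at 116 ± 6.91 TPM. Slc2a2 came next at 77.2 ± 11.6 TPM and Slc2a1 at 19.5 ± 1.46 TPM. Below them lay G6pc3 at 10.5 ± 0.640 TPM, Hk1 at 2.72 ± 0.433 TPM and Hk2 at 0.913 ± 0.247 TPM. No neighbours in this order overlapped in the saline livers. In the rMSA livers Slc2a2 stood second, overlapping Slc37a4, and Hk2 reached the level of Hk1, which it also overlapped. G6pc3, at 10.6 to 12.2 TPM, there lay above Slc2a1, at 6.98 to 9.67 TPM.

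In AML12 hepatocytes the order was another one. With vehicle, Hk1 was highest at 96.0 ± 3.09 TPM (SD, n = 3 libraries here and for each AML12 value), then G6pc3 at 38.0 ± 0.457 TPM, Slc2a1 at 25.1 ± 2.17 TPM and Slc37a4 at 13.4 ± 0.592 TPM. Slc2a2 was at 0.767 ± 0.156 TPM and Hk2 at 0.290 ± 0.0361 TPM, and Gckr was at 0 in 2 of the 3 vehicle libraries and at 0.04 TPM in the third one. Neighbours in this order did not overlap with vehicle, whereas Slc2a1 and G6pc3 overlapped with rMSA alone. The 2 tables were normalized separately, so levels in liver and cell line are set side by side without a test. Slc2a2 and Gckr were under 1 TPM in every AML12 library.

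Livers of rMSA-treated mice had more mRNA of the transporter Slc2a2 and of the hexokinase Hk2, and less of the transporter Slc2a1 and of the carrier Slc37a4, than livers of saline-treated mice. The words rose and fell are used of a gene with a limma adjusted p under 0.05 on log2(TPM + 1), adjusted by Benjamini-Hochberg over all genes tested. Tested were 11398 genes averaging 1 TPM or more over the livers, and all 8 members were among them, Hk2 only through its level in the rMSA livers. Of the members 2 rose and 2 fell, and of all tested genes 21.8% rose and 8.38% fell. The study's rule, which also asks for a log2 fold change of 1 or more in size, was passed by 3 members and by 8.61% of all genes. The study applied it to shrunken DESeq2 changes, whereas here it is applied to unshrunken limma changes of log2(TPM + 1). The saline and rMSA livers did not overlap for 5 members and for 45.6% of all genes, so that this alone is common in the livers. The median log2 fold change was 0.17 over the members and 0.12 over all tested genes.

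**Figure D1:**
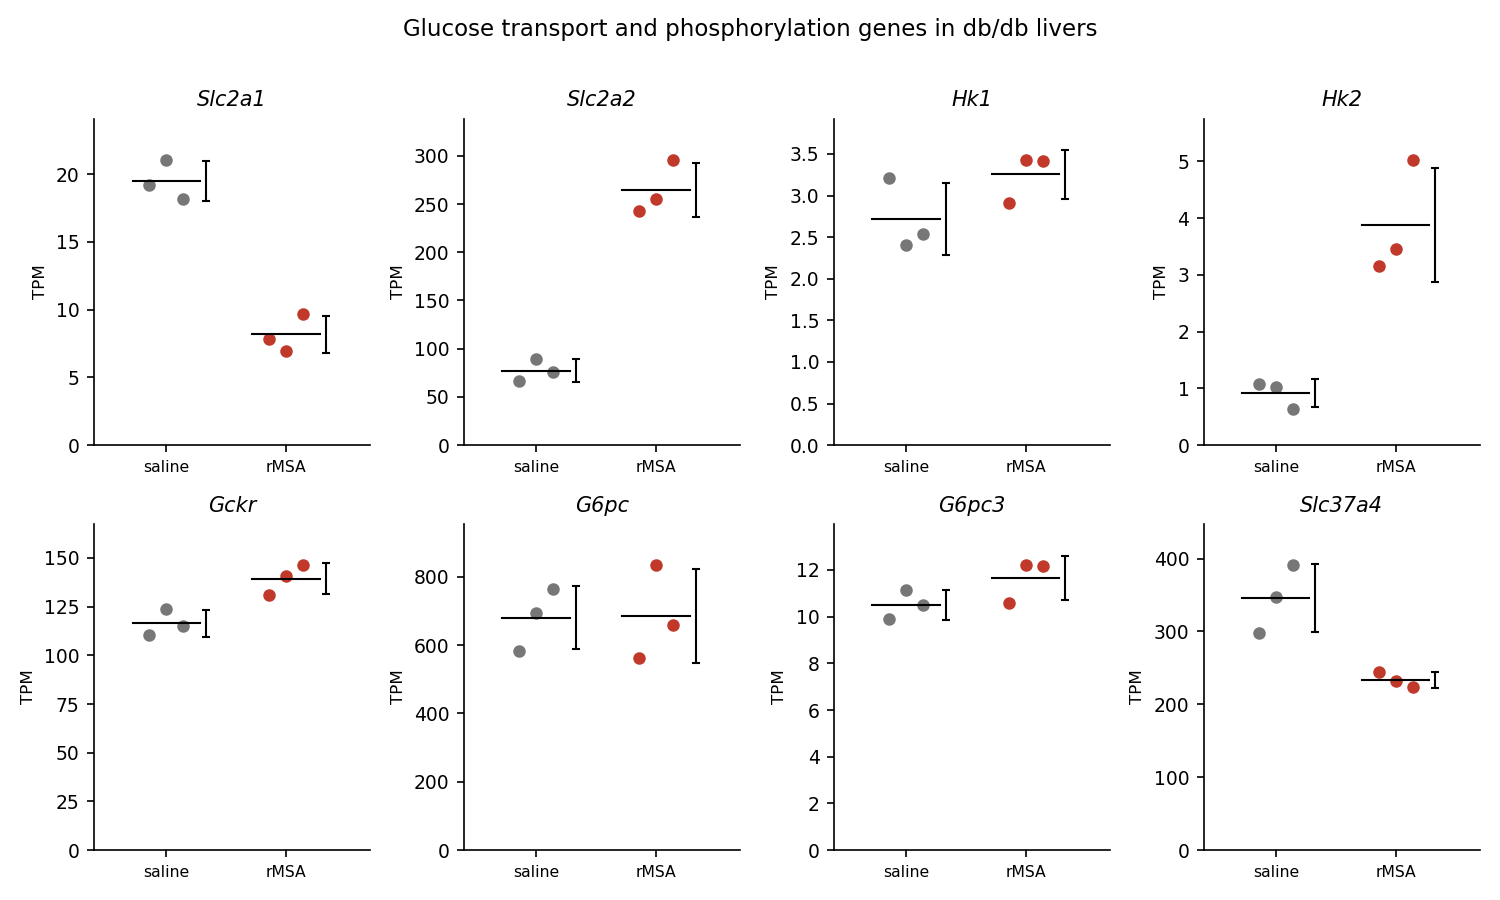
TPM of the 8 genes in each liver (points), with the mean (line) and the SD (bar) of 3 saline and 3 rMSA livers, each panel on its own linear axis from 0. All 3 rMSA livers lie above the saline livers for Slc2a2, Hk2 and Gckr and below them for Slc2a1 and Slc37a4, while the groups overlap for Hk1, G6pc and G6pc3.

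The transporters moved in opposite directions. Slc2a2 (chromosome 3, 28697903 to 28728361, gene 20526) was at 66.3, 89.4 and 76.0 TPM in the saline livers and at 242.5, 255.1 and 295.9 TPM in the rMSA livers. The lowest rMSA liver was thus well above the highest saline liver. The mean rose 3.43-fold to 265 ± 27.9 TPM, with a fitted log2 change of 1.77 (SE 0.13, 95% interval 1.46 to 2.07, limma adjusted p = 6.33e-05).

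Slc2a1 (chromosome 4, 119108745 to 119137330, gene 20525) was at 19.2, 21.1 and 18.2 TPM in the saline livers and at 7.85, 6.98 and 9.67 TPM in the rMSA livers. Again the groups were apart, with the rMSA livers lower. The mean was 2.39-fold lower, at 8.17 ± 1.37 TPM, with a log2 fold change of -1.17 (SE 0.14, 95% interval -1.50 to -0.84, limma adjusted p = 6.85e-04). Within a liver, Slc2a2 made up 79.7% ± 1.91 of the summed TPM of both transporters with saline and 97.0% ± 0.282 with rMSA. The log2 ratio of Slc2a2 to Slc2a1, taken with 1 TPM added to each, differed by 2.94 between the groups, and the two-sided exact permutation p was 0.1, the smallest that 3 against 3 allows.

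The hexokinases parted as well. Hk2 (chromosome 6, 82725025 to 82774454, gene 15277), an isoform of muscle, fat and proliferating cells, was at 1.08, 1.03 and 0.63 TPM in the saline livers and at 3.15, 3.46 and 5.03 TPM in the rMSA livers. Every rMSA liver exceeded every saline liver. The mean rose 4.25-fold to 3.88 ± 1.01 TPM, and the log2 fold change of TPM + 1, which understates a change at this level, was 1.34 (SE 0.19, 95% interval 0.90 to 1.78, limma adjusted p = 0.00145). The saline mean of 0.913 TPM lay under the filter of 1 TPM, so Hk2 entered this test only through the rMSA livers, where it is high. When genes of all levels are tested, its limma adjusted p was 0.00868. Hk1 (chromosome 10, 62268855 to 62379920, gene 15275), the isoform of brain, red cells and many other cell types, was at 3.21, 2.40 and 2.54 TPM with saline and at 2.91, 3.43 and 3.42 TPM with rMSA. Its groups overlapped, and the log2 fold change of 0.20 (SE 0.15, 95% interval -0.15 to 0.55, limma adjusted p = 0.372) did not pass. The ratio of Hk2 to Hk1 was 0.338 ± 0.0906 with saline and 1.19 ± 0.248 with rMSA. The log2 ratio differed by 1.14 with 1 TPM added to each and by 1.72 with 0.1 TPM added (two-sided exact permutation p = 0.1 for both).

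Gckr (chromosome 5, 31297266 to 31327302, gene 231103) was at 110.4, 124.0 and 115.1 TPM in the saline livers and at 131.1, 140.6 and 146.5 TPM in the rMSA livers. The groups did not overlap, but the difference was small. The mean was 19.7% higher with rMSA, at 139 ± 7.78 TPM, and the log2 fold change of 0.26 (SE 0.10, 95% interval 0.04 to 0.48, limma adjusted p = 0.0761) missed the threshold after adjustment.

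On the side of glucose release, the carrier fell and the catalytic subunits did not pass. Slc37a4 (chromosome 9, 44396946 to 44402966, gene 14385) was at 298.3, 346.8 and 391.4 TPM with saline and at 244.4, 232.3 and 223.1 TPM with rMSA. The rMSA livers lay close together and below all saline livers. The mean of the rMSA livers was 233 ± 10.7 TPM, a change of -32.5%, with a log2 fold change of -0.56 (SE 0.12, 95% interval -0.83 to -0.29, limma adjusted p = 0.00843).

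G6pc (chromosome 11, 101367716 to 101377903, gene 14377) was at 582.5, 695.0 and 764.8 TPM in the saline livers and at 563.1, 835.3 and 657.6 TPM in the rMSA livers. The rMSA group held both the lowest and the highest value of the 6 livers. Its mean of 685 ± 138 TPM differed from saline by -0.0005 on the fitted log2 scale (SE 0.16, limma adjusted p = 0.999), and the 95% interval from -0.38 to 0.38 still covers changes of that size in either direction. G6pc3 (chromosome 11, 102189699 to 102194081, gene 68401) was at 9.88, 11.2 and 10.5 TPM with saline and at 10.6, 12.2 and 12.2 TPM with rMSA. Its groups overlapped too, with a log2 fold change of 0.14 (SE 0.12, 95% interval -0.15 to 0.42, limma adjusted p = 0.457) that fell to -0.0044 under median centring. The ratio of G6pc to G6pc3 was 64.7 ± 7.29 with saline and 58.5 ± 8.51 with rMSA (two-sided exact permutation p = 0.5).

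**Figure D2:**
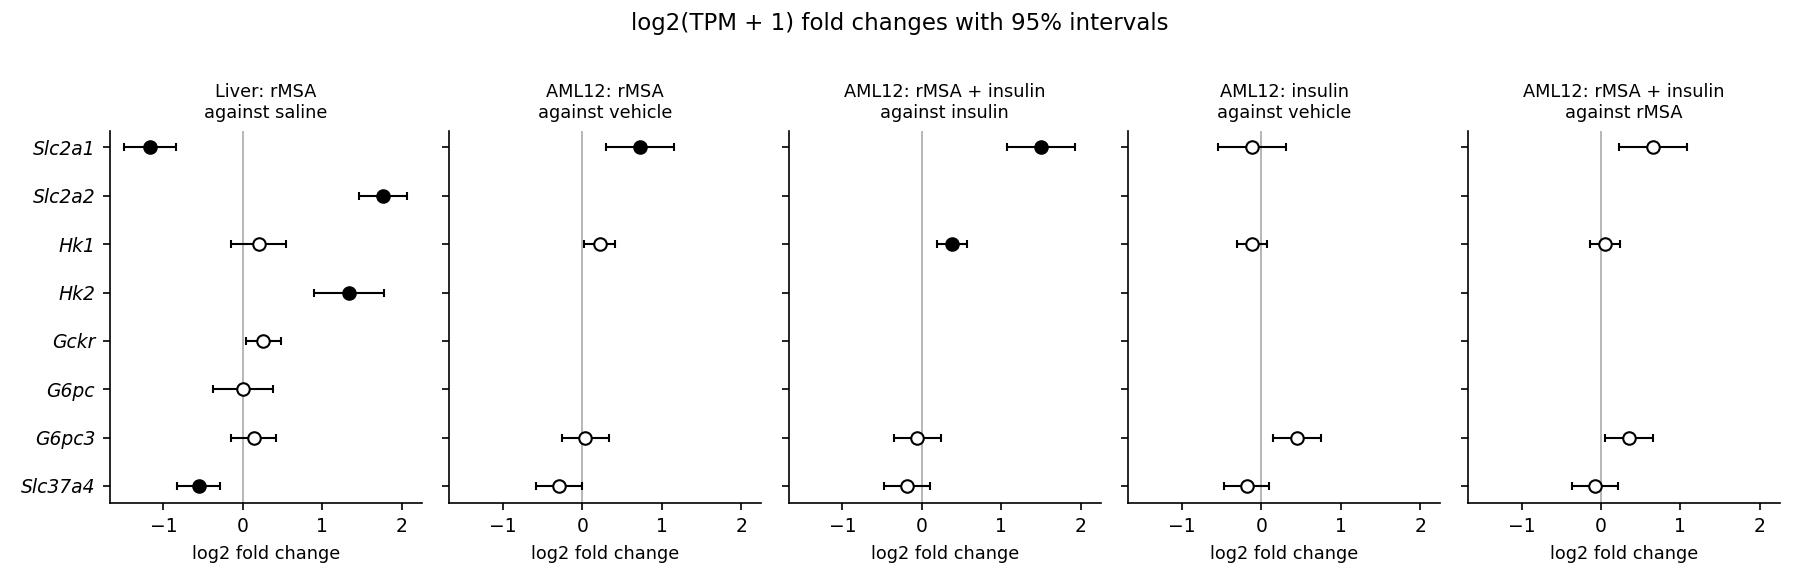
Fitted log2 fold changes of TPM + 1 (points) with 95% intervals (bars) for the members tested in each of 5 comparisons, filled where the limma adjusted p is under 0.05. In the livers Slc2a2 and Hk2 lie to the right and Slc2a1 and Slc37a4 to the left of 0, in AML12 hepatocytes Slc2a1 lies to the right of 0 for rMSA without and with insulin, and no point is filled for insulin against vehicle, where the signs of Slc2a1, Hk1 and Slc37a4 turn under median centring.

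The livers were whole tissue, in which fewer cells of a type and less RNA per cell cannot be told apart. Several of the members are also used by other cells of the liver, so 5 marker lists were summed for each liver. All 8 markers of stellate cells and fibroblasts were in the table and summed to 113.4 to 235.6 TPM with saline and 275.8 to 351.0 TPM with rMSA. Most of this sum was Dcn, which overlapped between the groups (87.3 to 203 TPM with saline and 176.4 to 252.9 TPM with rMSA). The other markers of this list were higher in every rMSA liver. The 5 bile duct markers went from 22.5 to 38.3 TPM with saline to 77.0 to 166.7 TPM with rMSA, most of it Spp1. The sums of both lists were thus higher in all rMSA livers, as were Slc2a2, Hk2 and Gckr. No defining marker of either was at 0, with Krt19 at 0.94 to 2.14 TPM with saline and at 3.35 to 4.68 TPM with rMSA. The 6 red cell markers summed to 2910 to 4059 TPM with saline and 2482 to 3397 TPM with rMSA, the 6 endothelial markers to 86.0 to 124.0 and 83.8 to 102.7 TPM, and the 8 markers of macrophages and leukocytes to 222.8 to 300.7 and 262.6 to 387.3 TPM. The sums of these 3 lists overlapped between the groups. Within the lists Cd68, Itgam and Tek were higher in every rMSA liver, Cd3e was lower, and the other markers overlapped. The part of any of the marker lists in the changes of Slc2a1, Slc2a2, Hk1, Hk2 or Slc37a4 was not tested.

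**Figure D3:**
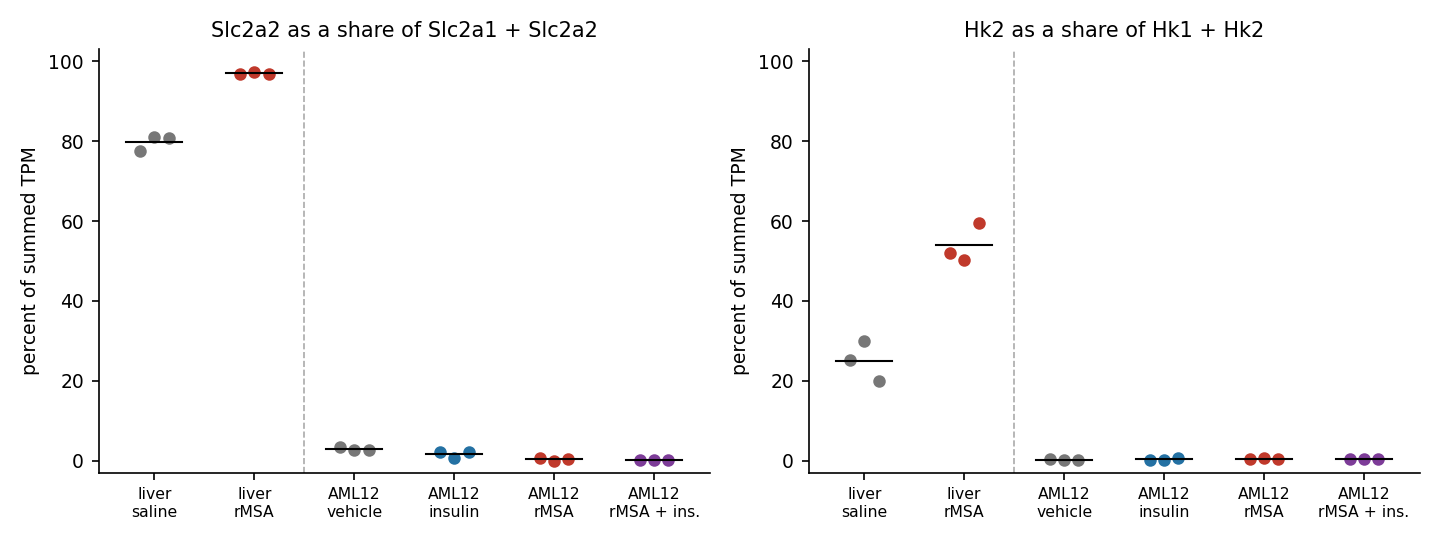
Slc2a2 as a percent of the summed TPM of Slc2a1 and Slc2a2 (left) and Hk2 as a percent of the summed TPM of Hk1 and Hk2 (right) in each of 18 libraries (points), with group means (lines) and a dashed line between the separately normalized liver and AML12 tables. Slc2a2 makes up 79.7% of the pair in saline livers and 97.0% in rMSA livers but at most 3.44% in AML12 hepatocytes, and Hk2 makes up 25.0% and 53.9% in the livers and under 1% in AML12 hepatocytes.

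Other genes of the pathway were taken as 4 lists. These were chosen with earlier results of these data known, so their counts and medians only describe the listed genes. Among the other sugar kinases 4 of 7 tested genes rose in the rMSA livers and none fell, beside 21.8% and 8.38% of all tested genes. Tkfc, which phosphorylates glyceraldehyde and dihydroxyacetone, rose from 362 ± 99.4 to 1240 ± 166 TPM (log2 fold change 1.80, SE 0.19, limma adjusted p = 2.92e-04). Khk, the fructokinase of liver, rose from 504 ± 93.0 to 1239 ± 123 TPM (log2 fold change 1.31, SE 0.15, limma adjusted p = 4.21e-04). Galk1, the galactokinase, rose from 33.9 ± 3.73 to 112 ± 17.6 TPM (log2 fold change 1.69, SE 0.14, limma adjusted p = 8.61e-05). The kinases named so far act on trioses, fructose and galactose rather than on glucose. Nagk, the kinase of N-acetylglucosamine, rose from 15.9 ± 0.726 to 33.7 ± 4.65 TPM (log2 fold change 1.03, SE 0.13, limma adjusted p = 6.96e-04). The median log2 fold change of the 7 was 1.03, against 0.12 over all tested genes. None of the 4 other glucose and hexose transporters tested, out of 10 in the liver table, passed in either direction. Of the 4 other genes that handle glucose-6-phosphate in the endoplasmic reticulum only Slc37a1, a relative of the carrier, passed, falling from 2.04 ± 0.223 to 1.02 ± 0.259 TPM (log2 fold change -0.60, SE 0.16, limma adjusted p = 0.0255).

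Among 18 regulators of these genes, 3 rose and 4 fell in the rMSA livers, with a median log2 fold change of -0.06, beside 21.8% and 8.38% of all tested genes. Those that fell are known as activators of glucose output. Crtc2, the coactivator of CREB in fasting, fell from 59.0 ± 1.67 to 21.7 ± 0.737 TPM (log2 fold change -1.40, SE 0.09, limma adjusted p = 4.10e-05). Hnf4a, a nuclear receptor that is also 1 of the 8 hepatocyte markers, fell from 500 ± 47.1 to 229 ± 25.7 TPM (log2 fold change -1.12, SE 0.12, limma adjusted p = 2.96e-04). Foxo1, a forkhead factor held out of the nucleus by insulin, and Ppargc1a, its coactivator, fell by 0.96 and 0.94 on the log2 scale (limma adjusted p = 0.00670 and 0.0382), although the groups overlapped for Ppargc1a. Mlxipl, the carbohydrate response factor ChREBP, its partner Mlx, and Pfkfb1, which makes and breaks down fructose-2,6-bisphosphate, rose by 0.48, 0.31 and 0.80 on the log2 scale (limma adjusted p = 0.0192, 0.0420 and 0.00177).

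**Figure D4:**
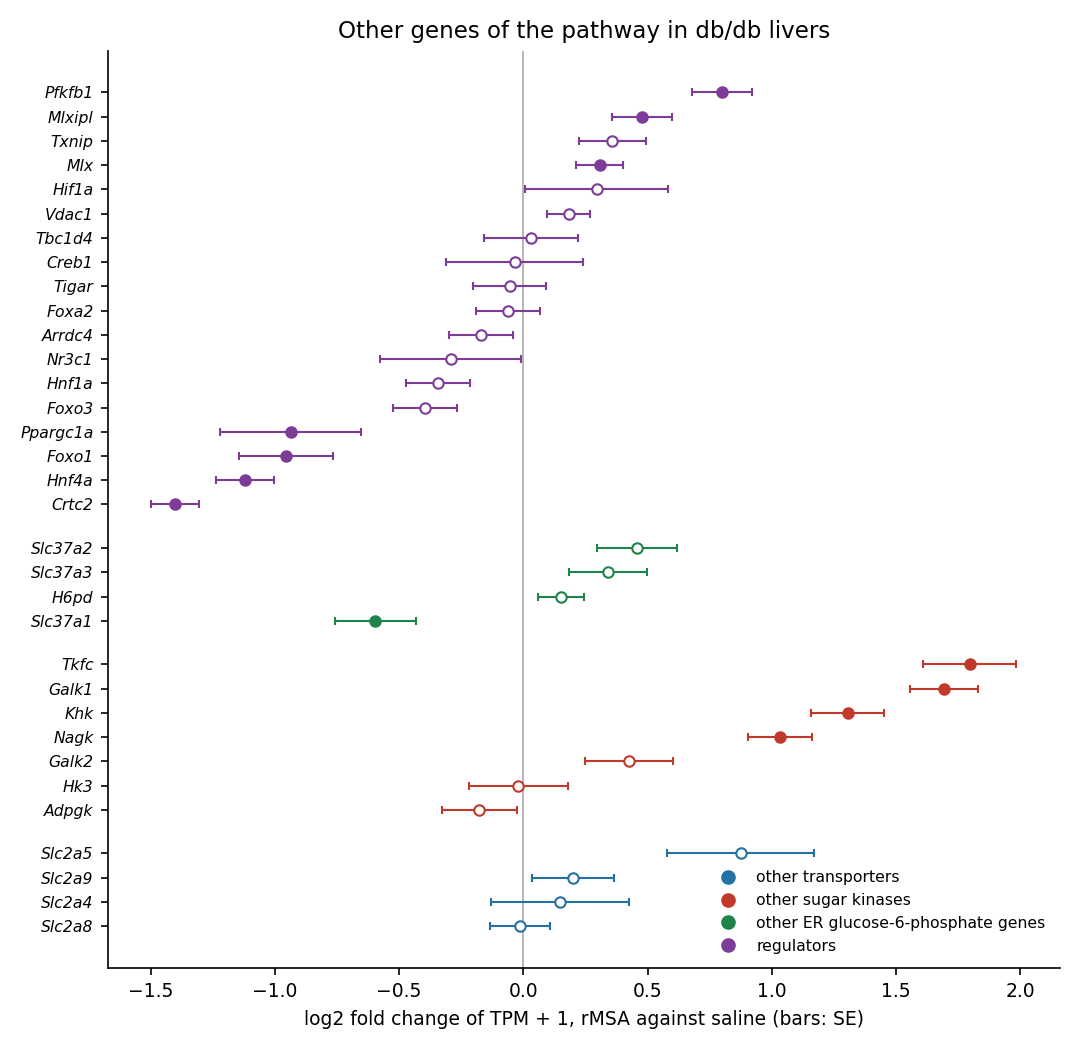
log2 fold changes of TPM + 1 with rMSA against saline in db/db livers (points) with SE (bars) for the tested genes of the 4 lists, filled at a limma adjusted p under 0.05. The filled sugar kinases all lie above 1, the filled regulators lie on both sides of 0 from -1.40 for Crtc2 to 0.80 for Pfkfb1, and no other transporter is filled.

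In AML12 hepatocytes rMSA went with more Slc2a1, the transporter that was lower in the rMSA livers. Of the 7 members in the table, Slc2a1, Hk1, G6pc3 and Slc37a4 passed the filter on low values and were tested among 10826 genes, and Slc2a2, Hk2 and Gckr did not. For rMSA against vehicle 1 of the 4 rose and none fell, when 5.90% of all tested genes rose and 1.89% fell. None of them passed the study's rule as used for the livers, which 1.81% of all genes passed. For these cells a figure legend of the study asks for p under 0.05 without calling it adjusted, and the adjusted p is used here. The groups did not overlap for 3 of the 4 and for 39.6% of all genes. The median log2 fold change was 0.13 over the 4 members and 0.06 over all tested genes.

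**Figure D5:**
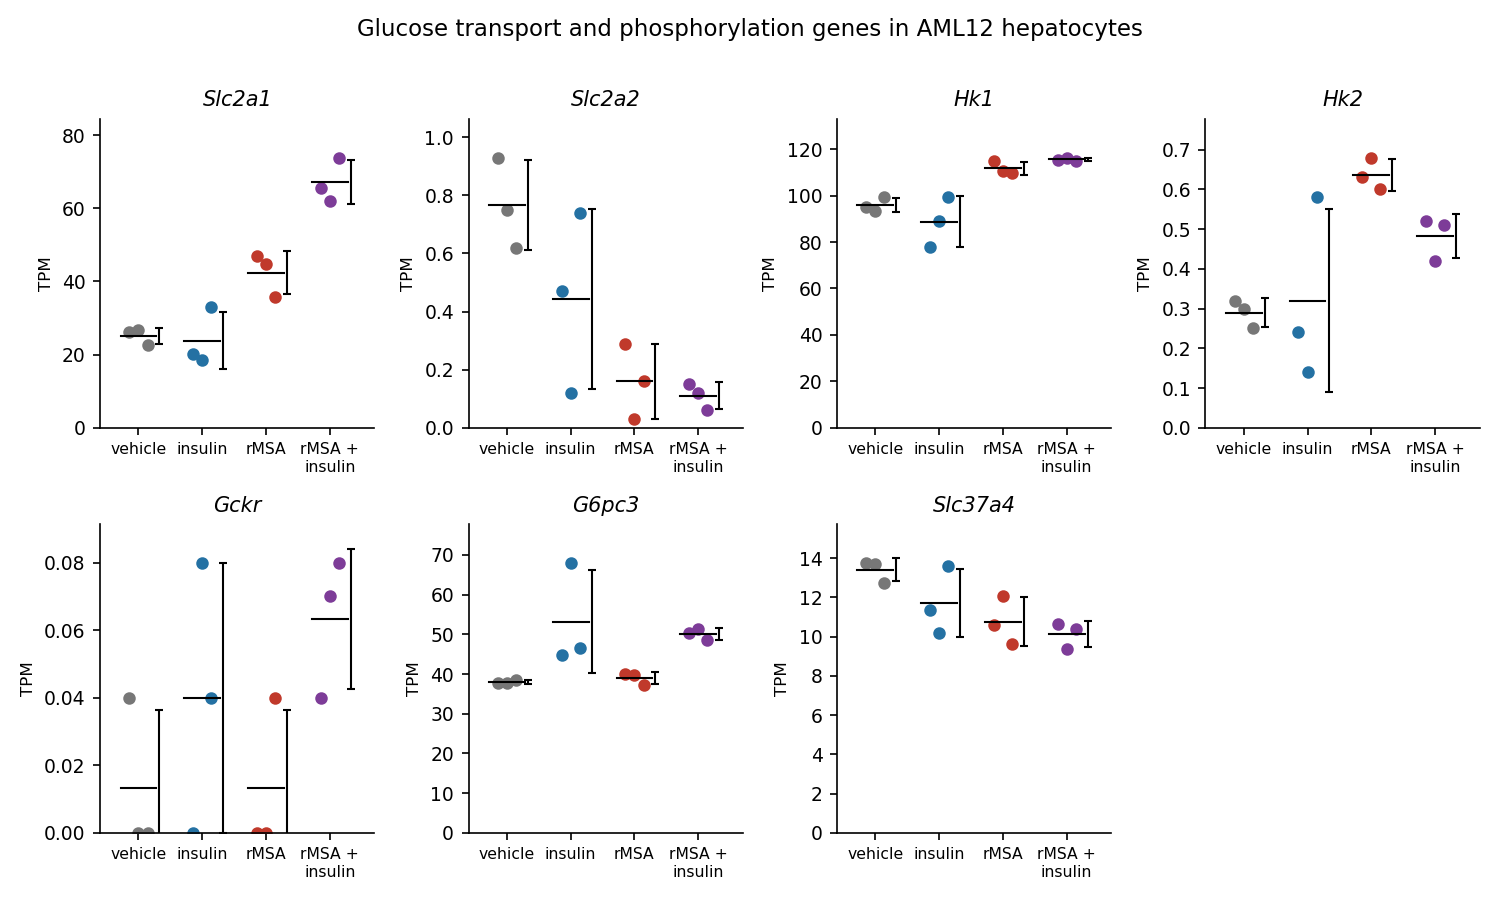
TPM of the 7 genes in each AML12 library (points), with the mean (line) and the SD (bar, cut at 0) of 3 libraries with vehicle, insulin, rMSA or rMSA + insulin, each panel on its own linear axis from 0. Slc2a1 is highest with rMSA + insulin, at 62.0 to 73.9 TPM, and Slc2a2, Hk2 and Gckr stay under 1 TPM in all 12 libraries.

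Slc2a1 was at 26.1, 26.7 and 22.7 TPM with vehicle and at 46.9, 44.7 and 35.7 TPM with rMSA. All rMSA libraries were above all vehicle libraries. The mean rose 1.69-fold to 42.4 ± 5.93 TPM, with a log2 fold change of 0.73 (SE 0.19, 95% interval 0.30 to 1.15, limma adjusted p = 0.0437). This call was lost when any 1 of the 6 libraries was left out (log2 fold change 0.65 to 0.84, limma adjusted p = 0.0515 to 0.173), without the filter on low values (limma adjusted p = 0.0513) and with the replicate number as a block (limma adjusted p = 0.0837).

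With insulin added as well, the rMSA difference was larger in value. Slc2a1 was at 20.1, 18.5 and 32.9 TPM with insulin and at 65.7, 62.0 and 73.9 TPM with rMSA + insulin. Insulin library 3 was higher than the other two, yet all 3 lay well below the rMSA + insulin libraries. The mean rose 2.82-fold, from 23.8 ± 7.88 to 67.2 ± 6.10 TPM, with a log2 fold change of 1.50 (SE 0.19, 95% interval 1.07 to 1.92, limma adjusted p = 4.99e-04). It was 1.0 (limma adjusted p = 0.00192) against insulin library 3 alone, assuming that this library varies like the other groups, and the call held in every alternative run. In this comparison 2 of the 4 members rose and none fell, against 14.5% and 2.73% of all tested genes, 1 member and 2.70% of all genes passed the study's rule, and 2 members and 25.5% of all genes had groups that did not overlap. The median log2 fold change was 0.16 over the members and 0.21 over all tested genes.

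Whether insulin alters the rMSA effect on Slc2a1 was tested as an interaction. The estimate was 0.77 (SE 0.27, 95% interval 0.17 to 1.37, unadjusted p = 0.0170, limma adjusted p = 0.648), which does not pass over all genes, and it was 0.28 (limma adjusted p = 0.333) without insulin libraries 1 and 2. Of all tested genes 0.0369% passed as higher and 0% as lower in the interaction (698 of them at an unadjusted p under 0.05 in limma). For Hk1, G6pc3 and Slc37a4 the interactions were 0.17, -0.10 and 0.11, each with a limma adjusted p of 0.9997.

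Hk1 was at 95.2, 93.5 and 99.5 TPM with vehicle and at 115.0, 110.5 and 109.8 TPM with rMSA. It was at 77.8, 89.1 and 99.6 TPM with insulin and at 115.3, 116.4 and 115.1 TPM with rMSA + insulin. In both settings every library with rMSA was above every library without it. The log2 fold change was 0.22 without insulin (SE 0.09, limma adjusted p = 0.188) and 0.38 with insulin (SE 0.09, 95% interval 0.19 to 0.57, limma adjusted p = 0.0116), and the second one passed. The median of all tested genes was higher by 0.21 in that comparison, and with median centring Hk1 came to 0.13 (limma adjusted p = 0.661). Without insulin libraries 1 and 2 it was 0.21 (limma adjusted p = 0.0399).

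The members under 1 TPM are given by level. Slc2a2 was at 0.93, 0.75 and 0.62 TPM with vehicle and at 0.29, 0.03 and 0.16 TPM with rMSA. These groups did not overlap, with rMSA lower, where in the livers Slc2a2 was higher with rMSA (two-sided exact permutation p = 0.1, the smallest possible, and limma adjusted p = 0.0276 when genes of all levels are tested). With insulin it was at 0.47, 0.12 and 0.74 TPM and with rMSA + insulin at 0.15, 0.12 and 0.06 TPM, and these overlapped (two-sided exact permutation p = 0.3). Slc2a2 made up 2.95% ± 0.431 of the summed TPM of both transporters with vehicle, 1.71% ± 0.924 with insulin, 0.376% ± 0.281 with rMSA and 0.167% ± 0.0767 with rMSA + insulin.

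Hk2 was at 0.32, 0.30 and 0.25 TPM with vehicle and at 0.63, 0.68 and 0.60 TPM with rMSA, which was higher in every library, as in the livers (two-sided exact permutation p = 0.1, and limma adjusted p = 0.0656 when genes of all levels are tested). With insulin it was at 0.24, 0.14 and 0.58 TPM and with rMSA + insulin at 0.52, 0.42 and 0.51 TPM, which overlapped. The highest of the insulin values was again that of library 3. Gckr did not exceed 0.08 TPM in any AML12 library.

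On the release side of the pathway no member passed for rMSA in the cell line. G6pc3 was at 37.8, 37.6 and 38.5 TPM with vehicle and at 40.0, 39.8 and 37.3 TPM with rMSA (log2 fold change 0.04, SE 0.14, limma adjusted p = 0.968). It was at 44.7, 68.1 and 46.7 TPM with insulin and at 50.3, 51.5 and 48.6 TPM with rMSA + insulin (log2 fold change -0.06, SE 0.14, limma adjusted p = 0.811). Every library with insulin was thus above every library without it, and the tests of these differences are given with the insulin comparisons. Slc37a4 was at 13.8, 13.7 and 12.7 TPM with vehicle, at 10.6, 12.1 and 9.63 TPM with rMSA, at 11.4, 10.2 and 13.6 TPM with insulin and at 10.7, 9.36 and 10.4 TPM with rMSA + insulin. The log2 fold change with rMSA was -0.30 without insulin (SE 0.13, limma adjusted p = 0.248) and -0.19 with it (SE 0.13, limma adjusted p = 0.366). Neither passed, although the rMSA and vehicle libraries did not overlap.

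Insulin alone moved no member past the threshold. None of the 4 tested members, and 0% of all tested genes in either direction, passed for insulin against vehicle in limma, where 3969 genes had an unadjusted p under 0.05. The groups did not overlap for 1 member, G6pc3, and for 16.1% of all genes. Its mean was 53.1 ± 13.0 TPM with insulin against 38.0 ± 0.457 TPM with vehicle, a log2 fold change of 0.45 (SE 0.14, 95% interval 0.15 to 0.75, limma adjusted p = 0.135). The estimates for Slc2a1, Hk1 and Slc37a4 were -0.11, -0.12 and -0.19 (limma adjusted p = 0.637, 0.281 and 0.263), when the median of all tested genes was -0.30, and with median centring all 3 were above 0. All 4 members passed when insulin library 3 was left out, but so did most genes, with 773 higher and 6642 lower of the 10826 tested.

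For rMSA + insulin against rMSA none of the 4 members passed, where 2.95% of all tested genes rose and 1.10% fell. The groups did not overlap for 3 members, all higher with rMSA + insulin, and for 55.7% of all genes. Slc2a1 was higher by 0.66 on the log2 scale (SE 0.19, 95% interval 0.23 to 1.08, limma adjusted p = 0.0835), and it passed with median centring (0.86, limma adjusted p = 0.00147), with quantile normalization, and in a fit of these 2 groups alone. G6pc3 was higher by 0.35 (SE 0.14, 95% interval 0.05 to 0.65, limma adjusted p = 0.146). Hk1 differed by 0.05 (SE 0.09) and Slc37a4 by -0.08 (SE 0.13), with limma adjusted p values of 0.700 and 0.687. The comparisons with rMSA and with insulin share libraries, and the median of all tested genes was -0.15 in this one.

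Of the other genes of the pathway none passed the study's rule in AML12 hepatocytes. For rMSA against vehicle 1 of 4 other transporters rose, 1 of 6 sugar kinases rose and 1 fell. None of the 2 endoplasmic reticulum genes or the 16 regulators passed, and of all tested genes 5.90% rose and 1.89% fell. For rMSA + insulin against insulin 2 of 4 transporters rose, 2 of 6 kinases rose and 1 fell. None of the 2 endoplasmic reticulum genes passed and 3 of 16 regulators rose, beside 14.5% of all tested genes that rose and 2.73% that fell. Slc2a6, a transporter of intracellular membranes, was in both counts, at 1.13 ± 0.179 TPM with vehicle, 2.52 ± 0.463 TPM with rMSA, 1.19 ± 0.393 TPM with insulin and 3.05 ± 0.452 TPM with rMSA + insulin (limma adjusted p = 0.0148 without and 0.00269 with insulin). Crtc2, which fell in the livers, rose from 32.2 ± 4.67 to 48.2 ± 3.53 TPM with rMSA + insulin against insulin (log2 fold change 0.57, SE 0.11, limma adjusted p = 0.00516). No gene of the 4 lists passed for insulin against vehicle, for rMSA + insulin against rMSA, or in the interaction.

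Genes whose log2(TPM + 1) ran closely with each member over the 12 AML12 libraries are given as a description, since the libraries share groups and the insulin libraries that stand apart. With Slc2a1 ran Bysl (Pearson r 0.987), and with Hk1 ran Ergic1 and Col18a1 (0.979 and 0.978). For G6pc3 they were Pcsk4 and Acaa1a (0.968 and 0.956) and for Slc37a4 Pip4k2c and Eef2k (0.949 and 0.946).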

How the data were processed

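RNA was sequenced from 6 db/db livers and 12 AML12 libraries, after depletion of rRNA and, per the labels, a selection of mRNA on oligo(dT) beads. Values were deposited as TPM with 2 decimals, and the submitters' processing notes name Trimmomatic 0.33, STAR 2.5.2b, featureCounts, Subread 1.6.0 and GRCm38. The annotation and the strand setting of the counting are not stated in these sources. TPM holds no read counts, so depth and counting precision are unknown, and the DESeq2 test of the authors could not be run.

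TPM plus 1 was put on the log2 scale, and all genes averaging 1 TPM or more in a table entered limma 3.58.1 in R 4.3.3 (a mean for each group, eBayes with trend, Benjamini-Hochberg adjustment over all tested genes in each comparison, 95% intervals per gene). The liver and AML12 tables were fitted separately. Members under the filter and the ratios within a library were compared with two-sided exact permutation tests. The 8 members, the pathway lists and the marker lists were chosen with earlier results of these data known. All members are named, and of the lists up to 4 genes per comparison that pass an adjusted p of 0.05 with a log2 fold change of 1 or more in size. Slc37a1, Foxo1, Ppargc1a, Mlxipl, Mlx, Pfkfb1, Slc2a6 and, in AML12 hepatocytes, Crtc2 fall outside this rule and were named after their values were seen. Beside the members tested in AML12 hepatocytes stand the genes with the highest Pearson r over those libraries, and a gene that meets this rule is not reported here. The fits were tested on simulated data in which genes varied independently, so shifts that many genes of a library share were not covered.

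Alternatives were 0.1 or 5 TPM added, no filter or a mean of at least 5 TPM, median centring, quantile normalization, the study's rule, the replicate number as a block, only the groups compared in the fit, and leaving out each library. Replicate numbers come from the sample titles. Deviations from the group mean of same-numbered vehicle and rMSA libraries had correlations of 0.53, 0.14 and 0.58, all over 0.1, so the blocked value is given beside that result. For insulin and rMSA + insulin they were 0.0954, 0.79 and 0.80, and for the livers 0.0498, -0.41 and -0.39.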

Additional observations from a re-analysis of the deposited data

Results flagged for a closer look

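The change of Slc2a1 with rMSA ran opposite ways in the 2 experiments, in that every rMSA liver was below every saline liver and every AML12 library with rMSA was above every library without it. On the log2(TPM + 1) scale the liver change minus that of rMSA against vehicle was -1.90, and minus that of rMSA + insulin against insulin it was -2.67. Slc2a2, under 1 TPM in AML12 hepatocytes, ran the other way, with a liver change minus that of rMSA against vehicle of 2.38. These differences were not tested, since the liver and AML12 tables were normalized separately and differ in dose, time and cell makeup.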

How the results depend on the processing

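TPM keeps no depth, each group had 3 libraries, and a change of a member under 1 TPM could be tested only by permutation or without the filter. Leaving out insulin libraries 1 and 2 was chosen after seeing the data. The liver calls of Slc2a1 (log2 fold change -1.31 to -0.90), Slc2a2 (1.63 to 1.88), Hk2 (0.58 to 1.98) and Slc37a4 (-0.70 to -0.46) kept an adjusted p under 0.05 in limma in every alternative that gave a value. The study's rule, which asks for a larger change, left out Slc37a4, and Hk2 has no value with a mean of at least 5 TPM. Of 414 member values under the alternatives, 361 kept direction and side of the threshold. Median centring changed the split of all calls into higher and lower genes. It went from 2487 and 955 to 1642 and 1496 in the livers, and from 639 and 205 to 607 and 333 for rMSA against vehicle. The comparison of rMSA + insulin with insulin went from 1575 and 296 to 707 and 740, and that of rMSA + insulin with rMSA from 319 and 119 to 619 and 758.

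For rMSA against vehicle, where 1 member passed, 0 passed with the study's rule, 0 with the replicate block, 1 without the filter (Slc2a2 in place of Slc2a1), 0 to 0 with each library left out in turn, and 2 in a fit of only these groups. For rMSA + insulin against insulin, where 2 passed, 1 passed with the study's rule and 1 with only these groups. Hk1 lost its call there with median centring (0.13), quantile normalization (0.21, adjusted p = 0.0920 in limma) and only these groups (adjusted p = 0.165 in limma), and Slc37a4 passed with median centring (-0.44) and quantile normalization (-0.43). For insulin against vehicle 0 to 4 passed when 1 library was left out (4 without insulin library 3, when 773 genes were higher and 6642 lower of 10826), for rMSA + insulin against rMSA 1 with median centring, 1 with quantile normalization and 2 with only these groups, and in the interaction 0 to 1 with 1 library left out (Slc2a1 at 1.02, adjusted p = 0.0267 in limma, without insulin library 3). The replicate block changed no other call of a member. The cause was not tested for any of these.

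Directions turned for members that had not passed. With median centring and quantile normalization, in that order, G6pc3 came to -0.0044 and -0.0027 in the livers and to -0.027 and -0.025 for rMSA against vehicle. For insulin against vehicle Slc2a1 came to 0.28 and 0.24, Hk1 to 0.28 and 0.028, and Slc37a4 to 0.21 and 0.23. For rMSA + insulin against rMSA Slc37a4 came to 0.13 and 0.20, and its interaction came to -0.079 and -0.035, while the interaction of Hk1 came to -0.022 with median centring. Without insulin libraries 1 and 2, G6pc3 came to 0.10 for rMSA + insulin against insulin and to 0.062 in the interaction, Slc2a1, Hk1 and Slc37a4 came to 0.38, 0.052 and 0.021 for insulin against vehicle, and the interactions of Hk1 and Slc37a4 came to -0.0033 and -0.098. With each library left out in turn, G6pc ran from -0.15 to 0.13 in the livers, G6pc3 ran from -0.17 to 0.13 for rMSA + insulin against insulin, Slc2a1 ran from -0.36 to 0.037 for insulin against vehicle, Slc37a4 ran from -0.15 to 0.0011 for rMSA + insulin against rMSA and G6pc3 ran from -0.21 to 0.092 in the interaction of rMSA and insulin. The log2 ratio of Hk2 to Hk1 for rMSA + insulin against insulin, -0.20 with 1 TPM added, was 0.22 with 0.1 TPM.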
